A study of Mus musculus with 18 samples.

Results

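The genes described here are 39 interferon-stimulated genes with antiviral roles, taken by name from a table of 47729 mouse genes. They were the IFIT proteins, the OAS enzymes, cytosolic RNA sensors, the transcription factors of the response, the ISG15 system, antiviral effectors, an ADP-ribosylation group, a pair of TRIM proteins and a pair of chemokines. The GBP and IRG GTPases and the antigen presentation genes were left out. All 39 were in the table, and all 39 had enough reads to be tested, along with 16937 genes in all.

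RNA-seq was performed on colons of WT mice and of mice lacking Cldn2, the gene for the pore-forming tight junction protein claudin-2. Each genotype was sampled as untreated control, after recovery from dextran sulfate sodium (DSS) colitis, and after azoxymethane (AOM) with DSS, a model of colitis-associated cancer. This gave 6 groups of 3 libraries each. Per the study's methods all lines were on a C57BL/6 background, Cldn2KO mice were compared with littermates, and animals were matched by age and sex. The knockout was carried by every cell of the mouse, so the data cannot place a change in the epithelium. AOM/DSS animals received AOM at 10 mg/kg and 3 cycles of DSS at 2.5%. The labels attach that protocol to every sample, controls and recovery included, and give no separate dose for recovery. Ages were not given in the sources used here. Nothing in the labels says that the libraries of a group came from separate animals, so the p-values measure the spread between these libraries.

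Interferons are secreted proteins that cells release when they detect viral nucleic acid or other danger. Type I and type III interferons bind their receptors, JAK kinases phosphorylate STAT proteins, and the complex ISGF3, which holds STAT2 and IRF9, binds the interferon-stimulated response element (ISRE) upstream of target genes. In the intestine a low tonic level of this signalling is known to be present without infection, and the products block translation, degrade RNA, sense viral RNA or modify proteins with ubiquitin-like ISG15.

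Cldn2 itself was at 44.5 to 504 CPM (reads of a gene as a share of all reads of its library, TMM-scaled) in the WT libraries and at 0.0555 to 0.557 CPM in the Cldn2KO libraries, which matched all 18 genotype labels. Totals were 17643058 to 27390344 counted reads per library. The epithelial marker sum was 9750 to 18993 CPM over all libraries. Hoxb13, a marker of distal colon, was at 198 to 570 CPM in 11 of the 12 control and AOM/DSS libraries but at 0.327 CPM in WT control library 2, and it was at 0 to 0.502 CPM in all 6 recovery libraries. The study's text gives distal colon as the source of the recovery RNA, and the marker goes against that. The segment sampled therefore cannot be told apart from recovery in any comparison of recovery with control. Xist was above 10 CPM in libraries 2 and 3 of both recovery groups and of the Cldn2KO AOM/DSS group and in no others, so the labelled AOM/DSS groups were not balanced for sex-linked expression.

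The ISRE is the sequence that the transcription factors in this list read, and short promoter stretches are shown so that the family resemblance can be seen. RefSeq promoters (GRCm38.p6) were at hand for 31 of the 39 genes, the others being Oas2, Mx1, Mx2, Usp18, Dhx58, Parp9, Parp14 and Rtp4. The letters GAAA, any 2 bases and GAAA again, on either strand, stood within 250 bases before the start in 12 of the 31 (38.7%), against 936 of 27025 genes in the table (3.46%). The letters TTCNNNGAA of the gamma-activated site (GAS), on either strand, stood in 5 of the 31 (16.1%) against 8.13% of all genes. A match is a description of letters and not of binding. Capitals mark the ISRE letters in the stretches below, written along the strand of the gene.

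In Isg15 (chr4:156200850-156200921, minus strand), which encodes the ubiquitin-like modifier, 3 matches overlapped. In Ifit1 (chr19:34640760-34640838, plus strand) 2 matches stood on the opposite strand. The same 94 bases stood before Ifit3 (chr19:34583348-34583441, plus strand) and Ifit3b (chr19:34607744-34607837, plus strand), and they are printed once. Oas3 (chr5:120777700-120777759, minus strand) and Ddx60 (chr8:61928009-61928086, plus strand) had among the larger differences in control colons. Stat2 (chr10:128270251-128270310, plus strand) encodes a subunit of ISGF3 itself. Trim30a (chr7:104465195-104465254, minus strand) had the second lowest adjusted p in recovery. Cxcl10 (chr5:92349068-92349127, minus strand) encodes a T cell chemokine.
Isg15: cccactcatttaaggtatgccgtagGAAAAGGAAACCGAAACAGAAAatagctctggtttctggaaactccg
Ifit1: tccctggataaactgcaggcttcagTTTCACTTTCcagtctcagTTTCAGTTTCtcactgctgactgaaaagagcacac
Ifit3 and Ifit3b: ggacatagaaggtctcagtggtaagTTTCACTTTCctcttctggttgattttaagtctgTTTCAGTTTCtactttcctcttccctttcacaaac
Oas3: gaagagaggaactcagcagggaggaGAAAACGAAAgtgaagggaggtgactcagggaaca
Ddx60: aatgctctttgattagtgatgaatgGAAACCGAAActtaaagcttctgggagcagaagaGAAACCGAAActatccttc
Stat2: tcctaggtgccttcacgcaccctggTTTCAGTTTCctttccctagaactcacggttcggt
Trim30a: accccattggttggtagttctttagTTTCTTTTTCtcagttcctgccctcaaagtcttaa
Cxcl10: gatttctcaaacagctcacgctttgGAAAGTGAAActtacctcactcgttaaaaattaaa

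The 12 genes with the letters had a median log2 fold change, Cldn2KO against WT, of -2.07 in control colons and -2.03 in recovery. The 19 without them had medians of -1.34 and -1.09. Stretches of sequence shared between genes also bear on the counts, because 57.6% of the 50-base words of Oas1a recur in Oas1g, 51.2% of those of Ifit3 in Ifit3b, and 12.5% of those of Herc6, 11.6% of those of Rtp4 and 10.4% of those of Ifi35 in other genes. Herc6 and Rtp4 overlap a gene on the same strand over 13.7% and 13.9% of their exon bases, and Ifi35 overlaps one on the opposite strand over 16.8%. Parp9 and Dtx3l overlap on opposite strands over 9.40% and 8% of their exon bases. Whether reads were counted by strand was not given in the sources used here, so the values of the genes named here are uncertain to that extent. The other members shared or overlapped less, except Ifit3b, which is the partner of Ifit3.

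**Figure D1:**
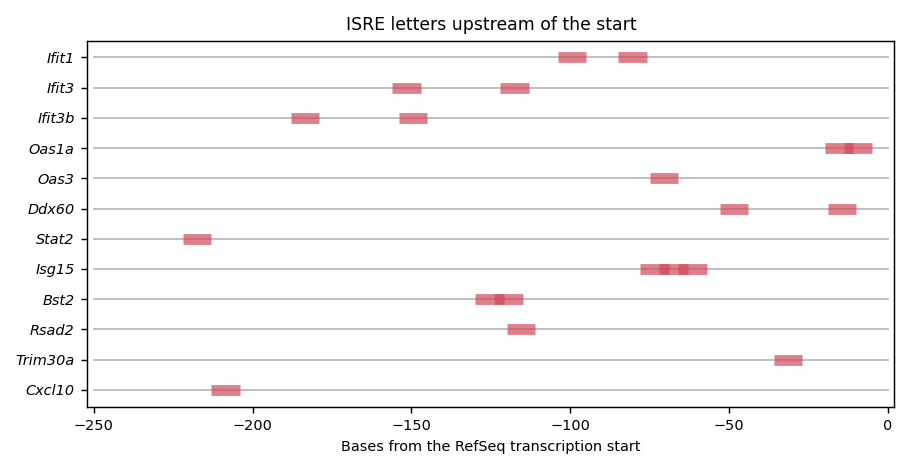
Position of the ISRE letters (red) in the 250 bases before the RefSeq start, one line for each of the 12 genes that hold them; the x axis is the distance from the start in bases. The matches lay between 222 and 5 bases before the start.

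The first question is whether the genotype alone changed the group in untreated colon. All 39 genes were fitted lower in Cldn2KO than in WT controls, with a median log2 fold change of -1.60, from -4.64 for Oas3 to -0.36 for Trim21. The median of all genes tested was -0.01, and 50.6% of all genes were fitted below 0. By edgeR's quasi-likelihood test with Benjamini-Hochberg adjustment over all genes, 13 of the 39 fell at an adjusted p under 0.05 and none rose, against 1.05% of all genes called lower and 0.124% called higher. In 36 of the 39, every Cldn2KO library was below every WT library, as was the case for 10.7% of all genes tested. In bulk RNA, fewer cells of a type and less RNA per cell cannot be told apart.

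**Figure D2:**
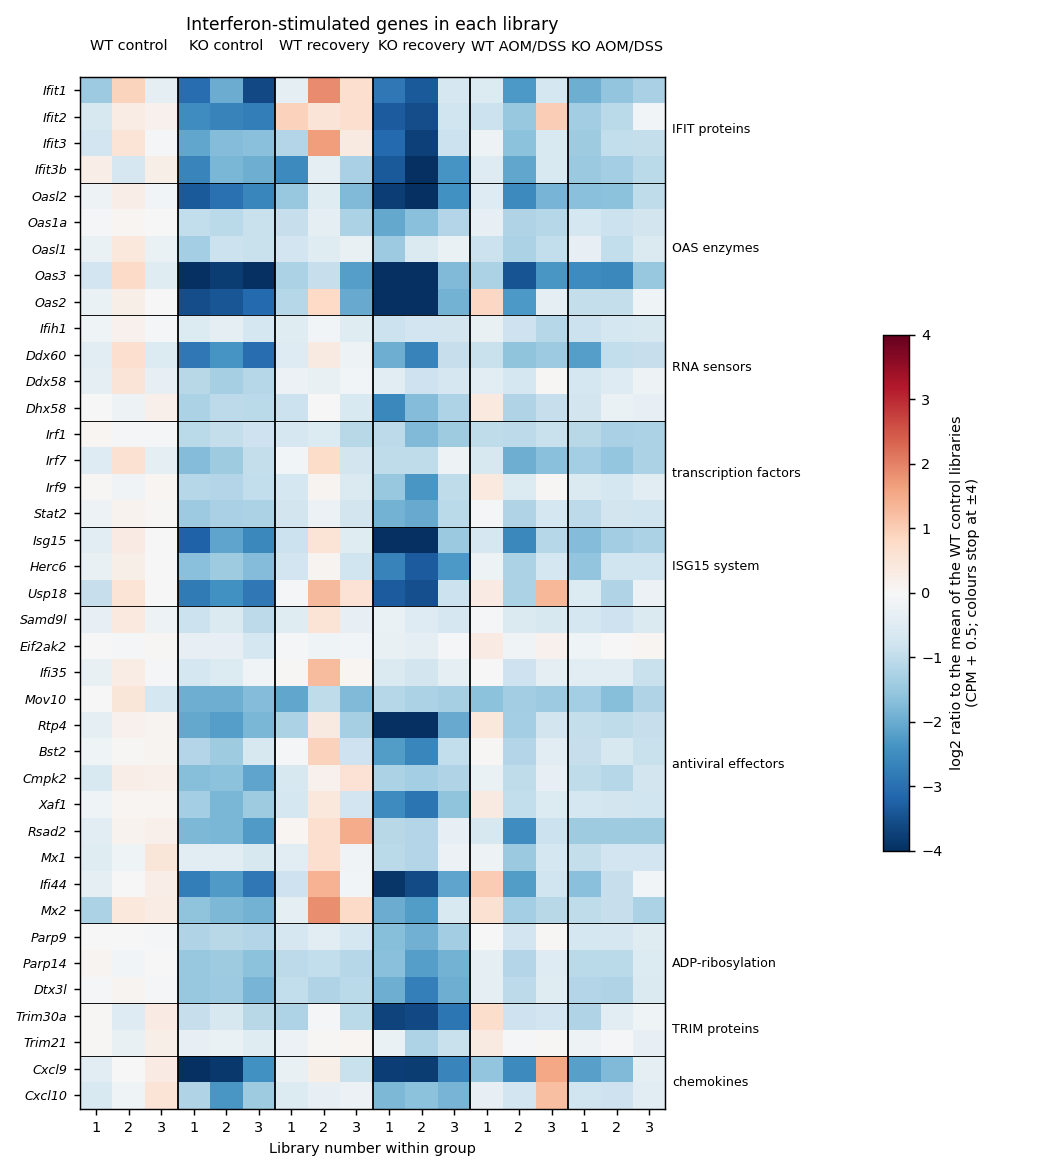
Level of each of the 39 genes in each of the 18 libraries as a log2 ratio to the mean of the 3 WT control libraries (CPM with 0.5 added; blue lower, red higher), with genes grouped by role. All 39 genes lay below the WT control mean in each of the 3 Cldn2KO control libraries and each of the 3 Cldn2KO recovery libraries.

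Among the OAS enzymes, which make the second messenger that activates RNase L or are its catalytically silent relatives, 2 of 5 fell. Oas3 was at 36.0, 104 and 43.3 CPM in the WT control libraries and at 1.23, 3.88 and 2.26 CPM in the Cldn2KO control libraries. The groups were far apart, and the log2 fold change was -4.64 ± 0.92 (SE, n = 3 per group; edgeR adjusted p = 0.0257). Oasl2, which encodes an OAS-like protein, was at 115, 161 and 124 CPM against 12.5, 16.3 and 21.4 CPM, again without overlap (-3.00 ± 0.58 on the log2 scale, edgeR adjusted p = 0.0223). Oas2, Oas1a and Oasl1 had values of -3.85, -0.99 and -1.03 and did not pass.

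Of the RNA sensors, 2 of 4 fell. Ddx60, a helicase that assists RIG-I, was at 83.7, 179 and 76.5 CPM in WT and at 15.1, 21.6 and 13.2 CPM in Cldn2KO controls (log2 fold change -2.76 ± 0.48, edgeR adjusted p = 0.0113). Ddx58, the gene for RIG-I, was at 24.5, 44.9 and 25.2 against 14.5, 12.3 and 14 CPM (-1.21 ± 0.24, edgeR adjusted p = 0.0209). In both genes WT control library 2 was the highest, and the lowest WT library was above every Cldn2KO library. Ifih1, which encodes MDA5, had the smallest difference of the 4 (-0.54 ± 0.18).

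The transcription factors were all lower, and 2 of 4 passed. Irf1, the factor induced by interferon gamma and the member with the highest mean per length in WT controls, was at 392, 362 and 357 CPM in WT and 173, 189 and 209 CPM in Cldn2KO controls (-0.96 ± 0.18, edgeR adjusted p = 0.0146). Stat2 was at 69.6, 87.9 and 82.9 against 28.6, 32.1 and 32.9 CPM (-1.36 ± 0.28, edgeR adjusted p = 0.0257). In both genes every WT library was well above every Cldn2KO library. Irf9, the DNA-binding subunit of ISGF3, was at 83.4, 73.3 and 86.1 against 36.6, 35.8 and 41.0 CPM (-1.10 ± 0.29, edgeR adjusted p = 0.0843). Irf7, which amplifies type I interferon production, was at 181, 400 and 198 against 78.2, 96.4 and 134 CPM (-1.34 ± 0.42, edgeR adjusted p = 0.152). Neither passed, although their groups did not overlap.

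The ADP-ribosylation group was the only role in which every gene fell, 3 of 3. Parp14, a mono-ADP-ribosyltransferase, was at 194, 169 and 178 CPM in WT and 62.8, 67.8 and 58.2 CPM in Cldn2KO controls (-1.52 ± 0.20, edgeR adjusted p = 0.00197, the smallest in the group). Dtx3l, an E3 ligase that acts with PARP9, was at 151, 171 and 155 against 55.2, 58.1 and 43.6 CPM (-1.60 ± 0.23, edgeR adjusted p = 0.00348). Parp9 was at 168, 170 and 163 against 72.4, 77.2 and 74.6 CPM (-1.16 ± 0.19, edgeR adjusted p = 0.00582). The 3 genes lie together at chr16:35832874-35972605, and no Cldn2KO library came near the lowest WT library in any of them.

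Of the antiviral effectors, 3 of 12 fell, and the 12 ranged from -2.89 to -0.45. Mov10, an RNA helicase, was at 65.8, 93.0 and 40.4 CPM in WT and 16.7, 16.6 and 19.7 CPM in Cldn2KO controls (-1.91 ± 0.28, edgeR adjusted p = 0.0038). Cmpk2, a mitochondrial nucleotide kinase, was at 17.3, 32.4 and 30.6 against 7.84, 8.27 and 5.76 CPM (-1.87 ± 0.31, edgeR adjusted p = 0.00698). Rsad2, which encodes viperin and lies next to Cmpk2 on chr12, was the third (-2.05 ± 0.44, edgeR adjusted p = 0.0335). The other 9, among them Ifi44, Mx2, Rtp4, Xaf1 and Bst2, did not pass, and Ifi35 and Mx1 were the members of this role whose groups overlapped.

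In the ISG15 system 1 of 3 fell. Herc6, the E3 ligase that attaches ISG15 to proteins in the mouse, was at 20.2, 29.3 and 24.7 CPM against 7.35, 8.82 and 7 CPM (-1.68 ± 0.35, edgeR adjusted p = 0.0299). Isg15 (-2.65 ± 0.80) and Usp18, its deconjugating enzyme (-3.00 ± 0.82), had larger differences and larger errors, and did not pass. The 4 IFIT genes, whose products bind viral RNA and block its translation, ranged from -2.77 to -1.89 with 0 of 4 called, and no Cldn2KO library overlapped WT in any of them.

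Both chemokines were low in the control libraries. Cxcl9 was at 6.53, 9.30 and 11.6 CPM in WT and 0.0986, 0.166 and 1.29 CPM in Cldn2KO controls, where it rested on 2, 3 and 24 reads (-4.13 ± 1.17, edgeR adjusted p = 0.108). Cxcl10 was at 1.85, 2.68 and 4.83 against 1.08, 0.222 and 0.861 CPM (-2.09 ± 0.59, edgeR adjusted p = 0.103). Both had groups that did not overlap, and neither passed. Of the TRIM proteins, Trim30a (-0.90 ± 0.43) and Trim21 (-0.36 ± 0.22) did not pass.

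**Figure D3:**
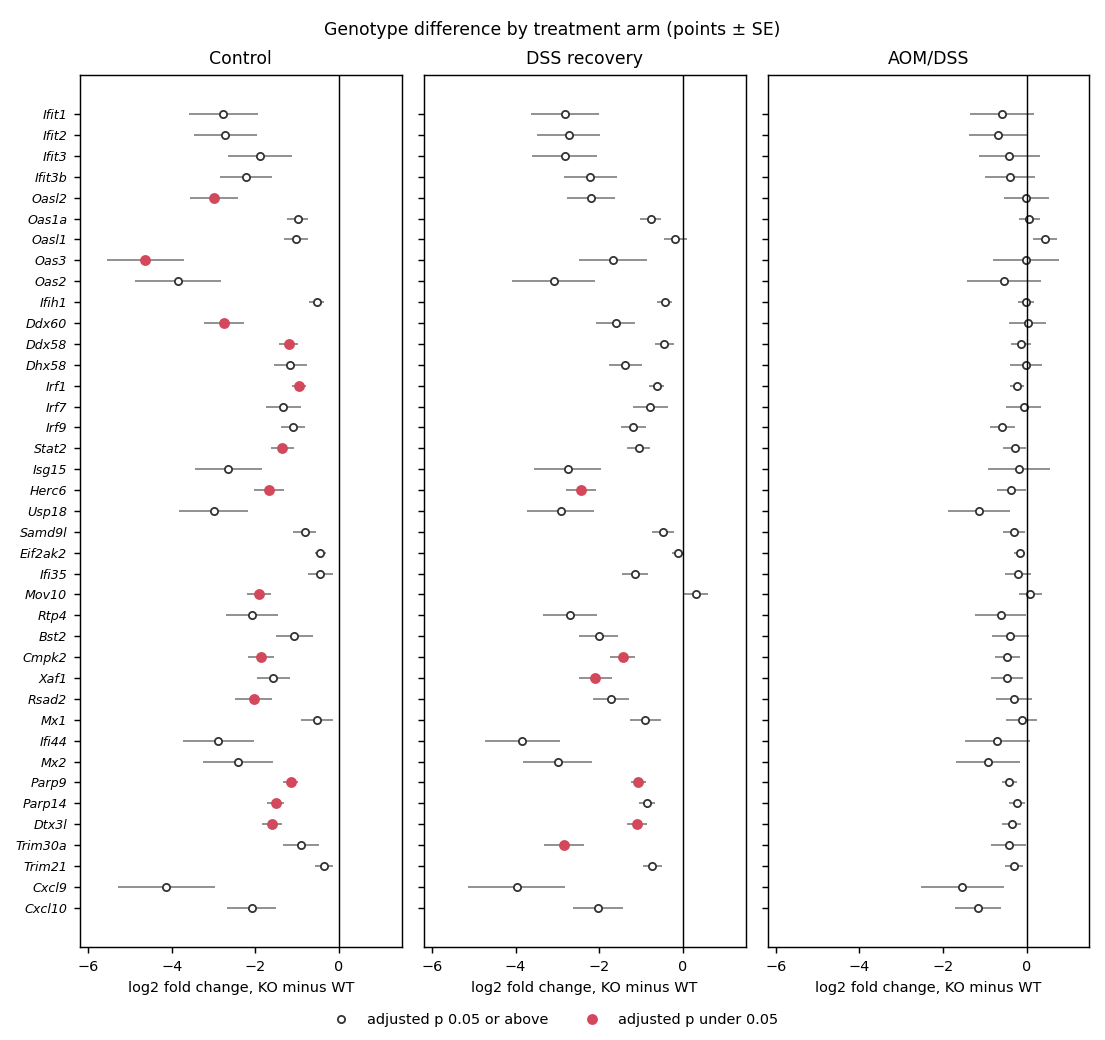
Log2 fold change of each of the 39 genes, Cldn2KO minus WT, with its SE, in controls, in recovery and after AOM/DSS; filled red points passed an edgeR adjusted p under 0.05 (13, 6 and 0 genes), and open points did not. The points lie left of 0 in controls for all 39 genes, in recovery for 38 and after AOM/DSS for 35.

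The direction did not depend on how the fit was made: all 39 genes stayed below 0 in controls under each of the 29 alternatives tried. The number called did, at 29 with DESeq2 (3.45% of all genes called lower), 36 with limma-voom (8.84%), 23 when only the control libraries were fitted (0.753%), 3 without Cldn2KO control library 1 and 6 without Cldn2KO control library 2. For fits with a library left out, here and below, the share of all genes called is not given. Without WT control library 2, the one that lacked Hoxb13, 11 were called, and with Hoxb13 as a term 9 (1.03% of all genes called lower), when Ddx58, Stat2, Herc6 and Rsad2 did not pass. With that library set aside, 37 of the 39 genes had every Cldn2KO control library below both remaining WT libraries. As 36 already did with it included, setting a library aside could not lower this count. The count is therefore no check on that library, and the share of all genes was not computed for it.

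Markers of immune cells moved with the genotype in the control colons. The sum of 14 T and NK cell markers was 16.3 to 205 CPM in WT, the highest in library 2, and 2 to 11.4 CPM in Cldn2KO controls, and 6 of 13 tested fell. The sum of 8 plasma and B cell markers was 739 to 900 against 13.9 to 166 CPM, with 3 of 8 called, most of it Jchain. The sum of 10 macrophage and dendritic cell markers was 226 to 292 against 105 to 381 CPM, with 0 called. Smooth muscle markers ran the other way, at 3564 to 5368 against 7293 to 9684 CPM, with 0 of 7 called, and epithelial markers were at 18038 to 18993 against 14127 to 17076 CPM, with 0 of 8 called. The defining T cell genes Cd3e, Cd3d and Cd3g had reads in all 18 libraries, with Cd3e at 0.511 to 7.27 CPM in WT and at 0.0555 to 0.246 CPM in Cldn2KO controls. Cd3d, at 1.18 to 9.62 against 0.222 to 2.53 CPM, and Cd3g, at 1.65 to 19.3 against 0.222 to 2.10 CPM, overlapped between the genotypes through Cldn2KO control library 3. Of the plasmacytoid dendritic cell markers, a cell type known for type I interferon, 0 of 4 tested were called, and the defining marker Siglech was at 0.157 to 0.589 CPM in WT and 0.0493 to 0.807 CPM in Cldn2KO controls. The sum of that list was almost all Klk1, and that of the neutrophil list, with 0 of 4 tested called, almost all Ly6g, with S100a8 at 0.0655 to 1.48 CPM in WT and 0 to 0.108 CPM in Cldn2KO controls. The part of these cells in the lower interferon-stimulated genes was not tested.

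The second question is whether the difference was also there after colitis had been followed by recovery. The libraries compared here are separate from the control libraries. In recovery, 38 of the 39 genes were fitted lower in Cldn2KO than in WT, with a median log2 fold change of -1.61, against 0.00 for all genes tested, of which 49.5% were fitted below 0. Of these, 6 fell and none rose by edgeR, against 0.425% of all genes called lower and 0.549% called higher. The groups did not overlap for 27 of the 39, against 11.7% of all genes tested. Mov10 was the exception, at 0.31 ± 0.28.

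Of the 6, Herc6 had the lowest adjusted p, with 14.4, 26.5 and 13.9 CPM in WT against 3.48, 1.99 and 4.63 CPM in Cldn2KO recovery libraries (-2.43 ± 0.37, edgeR adjusted p = 0.00955). Trim30a, a TRIM-family protein that restrains innate signalling, was at 15.4, 35.1 and 17.1 against 2.36, 2.51 and 4.48 CPM (-2.85 ± 0.47, edgeR adjusted p = 0.0166). Trim30a had not passed in controls. Xaf1, an interferon-induced antagonist of XIAP, was at 15.9, 35.2 and 15.1 against 4.23, 3.02 and 8.27 CPM (-2.09 ± 0.41, edgeR adjusted p = 0.0302). In these 3 genes no Cldn2KO library reached the lowest WT library.

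Parp9 was at 105, 124 and 102 against 50.8, 43.9 and 63.9 CPM (-1.07 ± 0.19, edgeR adjusted p = 0.0204). Dtx3l was at 80.5, 68.4 and 74.5 against 40.4, 23.4 and 40.9 CPM (-1.09 ± 0.23, edgeR adjusted p = 0.0418). Cmpk2 was at 16.8, 30.4 and 40.3 against 10.9, 10.1 and 11.2 CPM (-1.44 ± 0.31, edgeR adjusted p = 0.0418). The groups were separate in all 3 genes. Parp9, Dtx3l, Cmpk2 and Herc6 were the 4 genes called in both settings, 4 of the 13 called in controls and 4 of the 6 called in recovery.

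The remaining genes shown by library did not pass. Parp14 was at 86.9, 91.9 and 80.9 against 56.2, 38.6 and 48.7 CPM (-0.86 ± 0.20, edgeR adjusted p = 0.0536). Stat2 was at 47.5, 68.2 and 48.0 against 21.5, 19.3 and 37.6 CPM (-1.06 ± 0.28), and Irf9 at 49.3, 86.7 and 53.9 against 27.7, 15.7 and 40.2 CPM (-1.18 ± 0.29). The groups of these 3 genes did not overlap. Oasl2 was at 46.6, 94.4 and 39.3 against 9.37, 5.10 and 24.7 CPM (-2.20 ± 0.57), and Ddx60 at 78.4, 144 and 98.2 against 28.8, 17.5 and 58.8 CPM (-1.61 ± 0.46), again without overlap. Oas3 at 24.8, 32.1 and 12.8 against 3.21, 1.11 and 17.4 CPM (-1.68 ± 0.81), Irf1 at 232, 256 and 173 against 180, 109 and 138 CPM (-0.63 ± 0.18) and Irf7 at 240, 434 and 156 against 129, 128 and 227 CPM (-0.78 ± 0.42) did overlap. Cxcl9 was at 7.33, 10.9 and 4.73 against 0.214, 0.186 and 1.03 CPM (-3.98 ± 1.17), and Cxcl10 at 1.99, 2.37 and 2.60 against 0.535, 0.650 and 0.492 CPM (-2.04 ± 0.60).

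**Figure D4:**
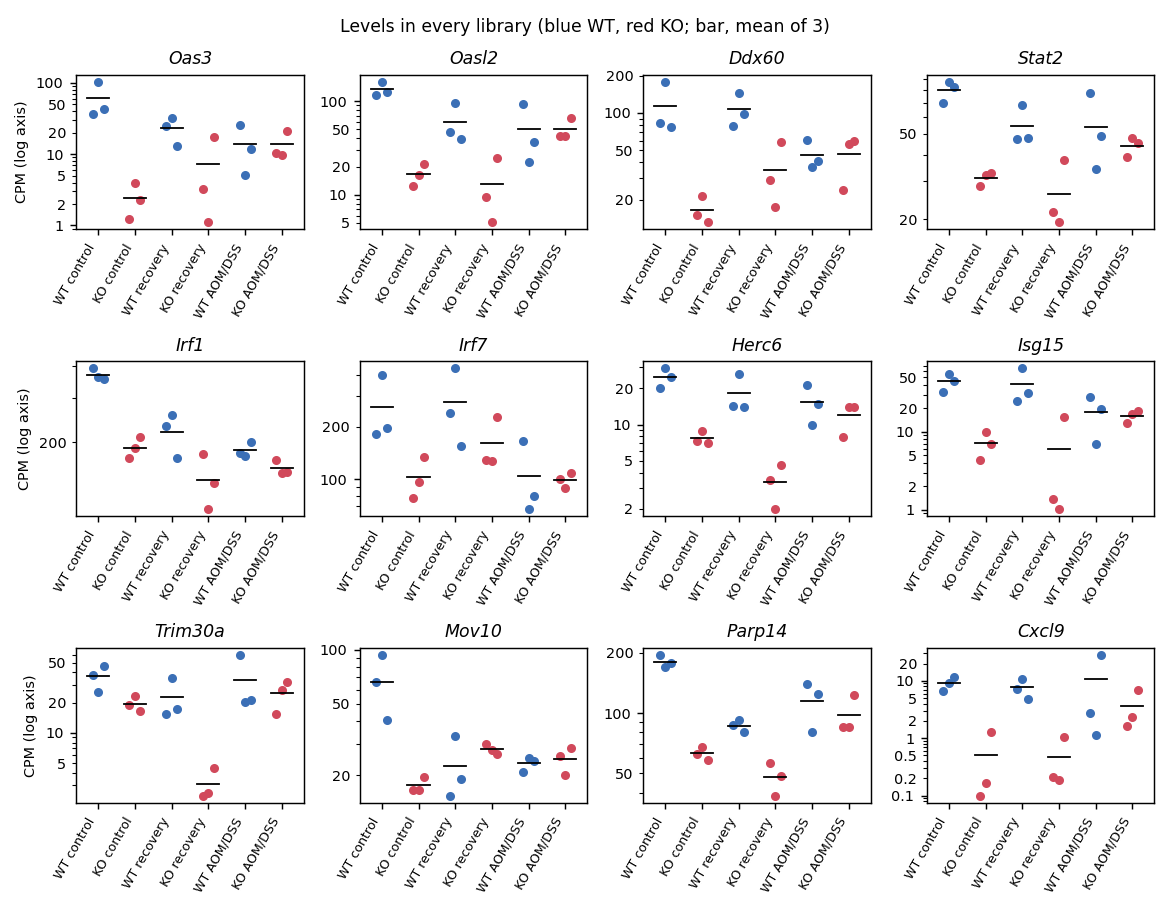
CPM on a log axis in each of the 3 libraries of each group for 12 of the genes; blue points are WT, red points Cldn2KO, and the bar is the mean. Oas3 lay between 1.23 and 3.88 CPM in Cldn2KO controls and between 36.0 and 104 CPM in WT controls, while after AOM/DSS the red and blue points of most panels interleave.

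The recovery groups were less even than the controls. Cldn2KO recovery library 3 was the highest of its group for 32 of the 39 genes and library 2 the lowest for 29, while WT recovery library 2 was the highest of its group for 30. The median log2 ratio of the 39 genes to the WT control mean was -1.87, -2.21 and -1.16 in the Cldn2KO recovery libraries and -0.67, 0.11 and -0.58 in the WT recovery libraries, so the 2 groups did not overlap on this summary. The number called moved with single libraries, from 0 without Cldn2KO recovery library 2 and 1 without WT recovery library 2 to 14 without WT recovery library 1 and 23 without Cldn2KO recovery library 3. Libraries of the other groups, which share the estimate of spread, moved it as well, to 16 without WT control library 2, 13 without WT AOM/DSS library 1 and 3 without Cldn2KO AOM/DSS library 1 or library 2. Whether the calls over all genes moved alike in these fits is not given here. It was 30 with DESeq2 (4.63% of all genes called lower), 27 with limma-voom (5.74%), 1 when only the recovery libraries were fitted (0.144%) and 14 with Hoxb13 as a term (1.55%). Comparing within Xist classes, 37 genes were lower in Cldn2KO library 1 than in WT library 1, the low-Xist pair, and 32 had both high-Xist Cldn2KO libraries below both high-Xist WT libraries. The shares of all genes with the same order were not computed, so these counts have no background to be read against. The T and NK cell marker sum was 79.7 to 230 CPM in WT recovery, highest in library 2, and 36.9 to 55.5 CPM in Cldn2KO recovery, with 0 of 13 tested called, and the plasma and B cell sum was 91.4 to 131 against 17 to 20.8 CPM, with 1 of 8 called. The macrophage and dendritic cell sum was 39 to 72.6 against 27.7 to 38.6 CPM, with 0 of 10 called and 9 of 10 below 0. Their part in the result was not tested.

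Across the 39 genes, the genotype log2 fold changes in controls and in recovery had a Pearson r of 0.68 and a Spearman rho of 0.71. The 2 comparisons share no library, but within each the points are genes measured in the same libraries and are not independent. Oas3 and Ddx60 were farther from 0 in controls, while Trim30a, Ifi44 and Ifi35 were farther from 0 in recovery, and none of these 5 was called for the difference. The genotype by recovery interaction called 1 of the 39 (Mov10, 2.22 ± 0.39, edgeR adjusted p = 0.0404), against 0.130% of all genes called in either direction. Mov10 fell from 65.8, 93.0 and 40.4 CPM in WT controls to 15.4, 32.9 and 19.1 CPM in WT recovery, and stood at 16.7, 16.6 and 19.7 CPM in Cldn2KO controls and 29.7, 27.6 and 26.3 CPM in Cldn2KO recovery. It lost the call in 18 of the 28 alternatives, with adjusted p between 9.4e-05 and 0.148. DESeq2 called 2 of the 39 in either direction, against 5.18% of all genes.

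**Figure D5:**
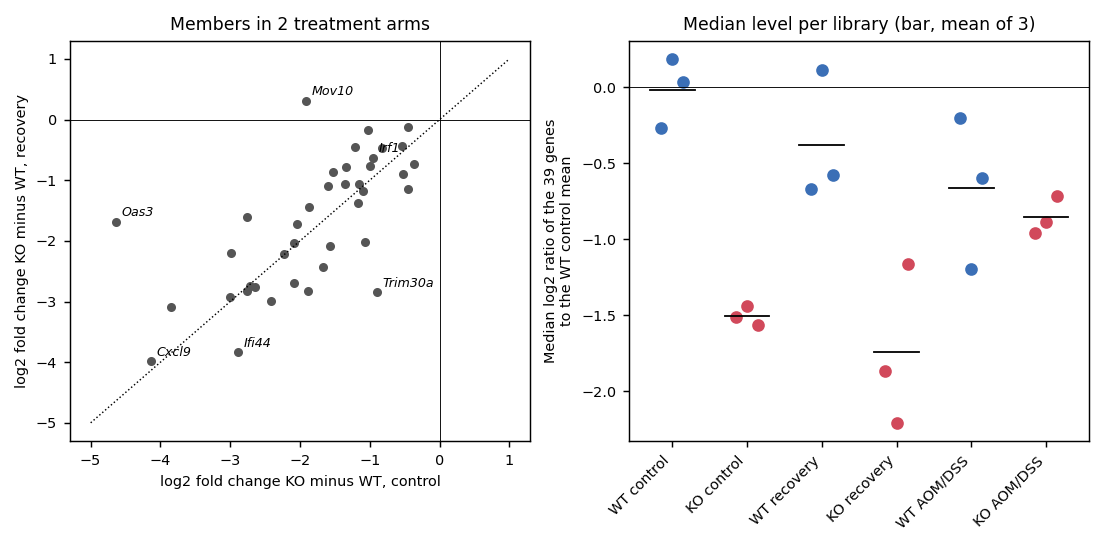
Left, genotype log2 fold change of each of the 39 genes in controls (x axis) and recovery (y axis), with a dotted line of equality; Mov10 is the gene above 0 on the y axis. Right, median log2 ratio of the 39 genes to the WT control mean in each library, with the bar at the mean of 3; Cldn2KO controls lay between -1.56 and -1.44, and Cldn2KO AOM/DSS libraries between -0.96 and -0.71.

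The third question is whether the difference was present in colons after AOM/DSS. There, 35 of the 39 genes were fitted below 0, as were 50.5% of all genes, with a median log2 fold change of -0.31, but 0 were called by edgeR, 0 by DESeq2 and 0 by limma-voom, against 0.00590% of all genes called lower. At an unadjusted p under 0.05 there was 1, against 2.28% of all genes called lower, Parp9 (-0.41 ± 0.18, edgeR adjusted p = 0.862), named here after its value was seen. For 24 of the 39 all 3 Cldn2KO libraries lay inside the range of the 3 WT libraries, a count for which no share of all genes was computed. For 1 of the 39 the groups did not overlap, against 6.38% of all genes lower without overlap. That gene was Irf1, at 181, 177 and 201 CPM in WT and 170, 152 and 153 CPM in Cldn2KO.

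The WT AOM/DSS libraries were wide apart. Library 1 was the highest for 31 of the 39 genes and library 2 the lowest for 36. Oasl2 was at 92.7, 22.2 and 36.7 CPM in WT and 41.9, 42.2 and 65.8 CPM in Cldn2KO, Herc6 at 21.5, 10.0 and 14.9 against 7.89, 14.1 and 14 CPM, and Stat2 at 78.0, 34.4 and 49.0 against 38.9, 47.6 and 45.4 CPM. In all 3 genes the groups overlapped. Cxcl9 was at 2.76, 1.14 and 27.9 against 1.62, 2.30 and 6.90 CPM, with its highest value in WT library 3. The sign of the difference changed for 27 of the 39 genes under at least one of the 28 alternatives, and the median became 0.12 with limma-voom and 0.00 without WT AOM/DSS library 1. It became -0.57 with sex-linked expression as a term, with 38 of the 39 below 0, and -0.57 without WT AOM/DSS library 2, with 37 below 0, and 0 were called in either. The median SE was 0.39 on the log2 scale, and the lack of calls does not show that the genotypes were alike. In the low-Xist Cldn2KO library 1, 25 genes lay inside the WT range, 12 below it and 2 above it, with no shares of all genes computed. The T and NK cell marker sum was 11.2 to 26.4 CPM in WT and 5.65 to 12.9 CPM in Cldn2KO. Fitted below 0 were 12 of 13 tested in that list, 7 of 8 for plasma and B cells and 8 of 10 for macrophages and dendritic cells. So were 4 of 4 each for neutrophils and plasmacytoid dendritic cells, but 0 of 7 for smooth muscle and 0 of 8 for epithelium. None of these cell markers was called, and their part in the result was not tested.

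Each treatment was also compared with the untreated colon of the same genotype. These comparisons share their control libraries with the genotype comparison above, so they are given side by side and not as separate evidence. In WT mice, AOM/DSS against control gave a median log2 fold change of -0.50 over the 39 genes, with 6 called lower and 0 higher, against 6.58% of all genes called lower and 3.81% called higher. These were Irf1 (-0.99 ± 0.18), Mov10 (-1.51 ± 0.28), Ifih1 (-0.71 ± 0.19), Oasl1 (-1.04 ± 0.28), Oas1a (-0.84 ± 0.25) and Parp14 (-0.65 ± 0.20), with edgeR adjusted p from 0.00824 to 0.0463. None of the 6 was called when only these groups were fitted, and 2 were called without WT control library 2, without WT AOM/DSS library 2 or without WT AOM/DSS library 3, and 3 without Cldn2KO control library 3. DESeq2 called 11 lower (10.9% of all genes), limma-voom 19 (8.99%) and a fit with Hoxb13 as a term 2 (1.46%). Of the cell markers tested in this comparison, 3 of 13 for T and NK cells, 1 of 8 for plasma and B cells, 4 of 8 for epithelium and 3 of 7 for smooth muscle were called lower, and 3 of 4 for neutrophils and 1 of 4 for plasmacytoid dendritic cells were called higher. Their part in the result was not tested.

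In Cldn2KO mice, AOM/DSS against control ran the other way, with 34 of the 39 fitted above 0 (50.5% of all genes) and a median of 0.64, but 0 were called by edgeR against 0.0768% of all genes called higher. At an unadjusted p under 0.05 there were 15 higher and 0 lower, against 8.60% and 6.60% of all genes. DESeq2 called 4 higher (2.15% of all genes), limma-voom 16 (9.03%) and a fit of these groups alone 14 (3.10%). The 2 groups did not overlap, with AOM/DSS higher, for 28 of the 39, against 15% of all genes. Oas2 (3.19 ± 1.01, edgeR adjusted p = 0.171), Ddx60 (1.49 ± 0.46, edgeR adjusted p = 0.165) and Parp14 (0.64 ± 0.20, edgeR adjusted p = 0.159) had among the smallest p-values. Irf7 was among the 5 fitted below 0, at -0.05 ± 0.41. The Cldn2KO controls were all low in Xist while AOM/DSS libraries 2 and 3 were not, and with sex-linked expression as a term the median was 0.39, with 31 above 0. None of the cell markers was called in this comparison. The smooth muscle sum, at 7293 to 9684 CPM in controls and 2205 to 5530 CPM after AOM/DSS, did not overlap, and neither did the neutrophil marker S100a8, at 0 to 0.108 and 2.08 to 8.77 CPM. Their part in the result was not tested.

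The test of the difference between these 2 responses, the genotype by AOM/DSS interaction, was above 0 for all 39 genes with a median of 1.29, against 52.5% of all genes above 0. It called 0 by edgeR, against 0.0118% of all genes called in either direction, with 19 higher at an unadjusted p under 0.05, against 5.41% of all genes. The smallest adjusted p was 0.213, for Mov10 (2.0 ± 0.39), followed by 0.298 for Parp14 (1.29 ± 0.28). Oas3 (4.61 ± 1.18) had the largest value, and it did not pass. DESeq2 called 5 higher (0.455% of all genes) and limma-voom 18 (1.40%). The T and NK cell markers had values in the same direction, with 13 of 13 tested above 0, a median of 2.98 and 0 called. Their part in the result was not tested.

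Recovery was compared with control in the same way. In WT mice 6 were called lower and 0 higher, with a median of -0.26, against 12.2% of all genes called lower and 10.0% called higher. They were Mov10 (-1.57 ± 0.28), Parp14 (-1.06 ± 0.20), Dtx3l (-1.09 ± 0.23), Irf1 (-0.75 ± 0.18), Oas1a (-0.82 ± 0.25) and Parp9 (-0.60 ± 0.18), which includes the whole ADP-ribosylation group, and 3 were called without WT recovery library 3. Limma-voom called 20 in either direction (47.7% of all genes), and a fit with Hoxb13 as a term called 3 lower (4.89%). With sex-linked expression as a term the median was -0.58, with 32 of the 39 below 0. Markers called lower beside them were 9 of 10 for macrophages and dendritic cells, 5 of 8 for plasma and B cells, 4 of 8 for epithelium and 4 of 7 for smooth muscle. Of 4 tested for plasmacytoid dendritic cells, Klk1 was called higher and the other 3 were fitted below 0. Siglech was at 0.157 to 0.589 CPM in WT controls and 0 to 0.0591 CPM in WT recovery. In Cldn2KO mice 2 were called lower, with a median of -0.25, against 10.0% of all genes called lower. They were Trim30a, which went from 18.9, 23.2 and 16.5 CPM to 2.36, 2.51 and 4.48 CPM (-2.65 ± 0.47, edgeR adjusted p = 0.00169), and Herc6 (-1.20 ± 0.36, edgeR adjusted p = 0.029). The number called in either direction was 8 without Cldn2KO recovery library 3, 4 without WT AOM/DSS library 2, and 1 without Cldn2KO recovery library 2 or any one Cldn2KO control library. It was 12 with limma-voom (33.8% of all genes called in either direction), 5 when only these groups were fitted (24.4%) and 5, all lower, with upper-quartile scaling (11.8% called lower). Of the markers, 8 of 13 tested for T and NK cells, 2 of 4 for neutrophils and 1 of 8 for epithelium were called higher, and 7 of 10 for macrophages and dendritic cells, 2 of 8 for plasma and B cells and 7 of 7 for smooth muscle were called lower. The part of these cells in either recovery result was not tested. With sex-linked expression as a term the Cldn2KO median was -0.48. A share of 6 in 39 or 2 in 39 is near the share of all genes called, so neither count sets the group apart, and the sampled segment differed between these libraries as described above.

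Levels per length put the differences in scale. In WT controls the 39 genes ranged from 1.99 TPM (reads per exon length, scaled to the same sum in every library) for Mx2 to 220 ± 33.0 TPM (SD, n = 3) for Irf1, followed by Irf7 at 195 ± 64.5 TPM and Isg15 at 136 ± 22.6 TPM. Irf1 and Irf7 did not differ beyond their spread. In Cldn2KO controls Irf1 remained the highest at 121 ± 8.96 TPM, and Isg15 stood at 23.3 ± 8.37 TPM.

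Upstream and beside these genes, the lists of pathway members gave the following. Of 9 interferon genes none had enough reads to test. Ifna1, Ifna4, Ifnb1 and Ifnl3 had no read in any library, which allows up to 3 reads in each, and the summed level of all 9 was at most 1 CPM. Of 6 receptor chains, 0 were called between genotypes in any treatment arm, 2 were called lower in WT recovery than in WT controls, and 1 was called lower in WT AOM/DSS colons than in WT controls. Ifnar1, a chain of the type I receptor, was at 32.4 to 52.6 CPM in WT controls and 35.1 to 40.5 CPM in Cldn2KO controls (-0.06 ± 0.22). Ifnlr1, the specific chain of the type III receptor, had a value of 0.89 ± 0.22 in recovery (edgeR adjusted p = 0.0602) and was lower in WT recovery than in WT controls (-0.85 ± 0.22, edgeR adjusted p = 0.0129), as was Ifngr1 of the type II receptor (-0.58 ± 0.18, edgeR adjusted p = 0.0308). Il10rb, the shared chain of the type III receptor, was the one lower after AOM/DSS (-0.54 ± 0.14, edgeR adjusted p = 0.0269).

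Of the 3 receptor-associated kinase genes Jak1, Jak2 and Tyk2, 0 were called between genotypes in any setting. Among 11 nucleic acid sensing genes 0 were called in controls and 1 in recovery, Zbp1, a sensor of Z-form nucleic acid (-2.93 ± 0.54, edgeR adjusted p = 0.0271). Among 6 negative regulators 1 was called in controls, Socs3 (-2.24 ± 0.44, edgeR adjusted p = 0.023), and among 4 other IRF factors 0 were called.

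A further list of 39 interferon-stimulated genes, of which 38 were tested, was lower as well. In controls 36 of the 38 were fitted below 0 with a median of -0.93, and 10 fell: Adar, Rnf213, Helz2, Uba7, Ube2l6, Lgals3bp, Lgals9, Trim25, Phf11d and Psmb8. Uba7 (-1.19 ± 0.22) and Ube2l6 (-1.27 ± 0.28) encode the E1 and E2 enzymes that load ISG15, upstream of Herc6. In recovery 32 of the 38 were below 0 with a median of -0.64, and 4 fell: Epsti1, Ube2l6, Sp100 and Psmb8. After AOM/DSS 0 were called.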

How the data were processed

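RNA was extracted from mouse colon with a column kit, and libraries were sequenced on an Illumina NovaSeq6000. The values used are raw counts of reads per gene, deposited by the authors for 18 libraries in 2 lanes each. The submitters' processing notes name HISAT2, featureCounts, Subread and GRCm38, whereas the paper's methods name TopHat2 as aligner and DESeq2 for testing; versions, annotation release, strand setting and treatment of multi-mapping reads are not given in the sources used here. Every count column was mapped to a library (0 columns of no sample).

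The lanes were summed. Genes were kept with edgeR's filterByExpr (16937 tested, 30792 not kept), scaled by TMM and fitted in one quasi-likelihood model of the 6 groups (edgeR 4.0.16, R 4.3.3; common dispersion 0.0993), with p-values adjusted over all genes tested. CPM used TMM-scaled library sizes. DESeq2 1.42.0 and limma 3.58.1 with sample weights were alternatives, as were other scalings, filters, thresholds, covariates, lanes and libraries left out. Replicate pairs differed by at least 11.9 chi-square per degree of freedom, the lanes of a library by 1.08 to 1.18, so each library was counted as its own sample. Depth was 17643058 to 27390344 reads per library, and a limit from a count of 0 covers counting error only. Scripts were tested on simulated data.

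The members, gene lists and tests were chosen with earlier results of these data known. All 39 members were accounted for. Values in every library are given for members called between genotypes in controls or recovery, up to 3 a role by mean CPM, and for Irf1, Irf7, Irf9, Stat2, Cxcl9 and Cxcl10; pathway genes are named where called, or where they are an interferon or a receptor chain. Some results are not reported here. ISRE and GAS letters were searched on both strands of RefSeq promoters.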

Additional observations from a re-analysis of the deposited data

Results flagged for a closer look

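Mov10 was the one gene of the 39 whose genotype difference itself differed between untreated and recovery colons by a test of the interaction, with a log2 value of 2.22 ± 0.39 (edgeR adjusted p = 0.0404). The Cldn2KO libraries were lower than WT in controls (-1.91) and not in recovery (0.31). All 28 alternatives kept the sign, between 1.90 and 2.60, and 10 kept the call.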

How the results depend on the processing

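The genotype difference in controls kept its direction for all 39 genes in each alternative, and its median stayed between -1.67 and -1.56 when libraries were left out in turn. In recovery that median ran from -1.95 to -1.38, and 38 genes were below 0, except without Cldn2KO recovery library 1, when 37 were and Oasl1, which ran from -0.45 to 0.10 with libraries left out, was above 0. A stricter threshold by itself lowers the count. Fits with a library left out or with fewer groups had fewer residual degrees of freedom, yet some of them called more genes. The cause of calls lost or gained between fits was not tested. Depth limits Cxcl9 in Cldn2KO controls, at 2, 3 and 24 reads, and the interferon genes.

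The number of genes called lower in controls was 21 at an adjusted p under 0.1, 5 at 0.01, 29 with DESeq2, 36 with limma-voom, 23 with only the groups compared, 9 with Hoxb13 as a term, and 3 to 19 with libraries left out. In recovery it was 28 at 0.1, 1 at 0.01, 30 with DESeq2, 27 with limma-voom, 1 with only the groups compared, 14 with Hoxb13 as a term, and 0 to 23 with libraries left out. After AOM/DSS it was 0 throughout, and the median went to 0.12 with limma-voom and from -0.57 to -0.00 with libraries left out.

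For WT recovery against control the count was 20 with limma-voom, 3 with Hoxb13 as a term and 3 to 6 with libraries left out (median -0.53 to -0.16). For Cldn2KO recovery it was 5 at 0.1, 1 at 0.01, 5 with upper-quartile scaling, 12 with limma-voom, 5 with only the groups compared, 0 with Hoxb13 as a term, and 1 to 8 with libraries left out (median -0.66 to -0.025). For WT AOM/DSS it was 11 at 0.1, 2 at 0.01, 11 with DESeq2, 19 with limma-voom, 0 with only the groups compared, 2 with Hoxb13 as a term, and 2 to 9 with libraries left out (median -0.92 with limma-voom, -0.98 to -0.29 with libraries left out). For Cldn2KO AOM/DSS it was 4 with DESeq2, 16 with limma-voom, 14 with only the groups compared and 0 with each library left out (median 0.39 with sex-linked expression as a term, 0.59 to 0.79 with libraries left out). Irf7 in that comparison became 0.20 with limma-voom, 0.22 without Cldn2KO control library 3 and 0.06 without Cldn2KO AOM/DSS library 2, and ran from -0.21 to 0.22 with libraries left out.

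The genotype by recovery interaction called 0 at 0.01, with upper-quartile scaling, with only the groups compared, with sex-linked expression as a term or with Hoxb13 as a term, 2 with DESeq2, and 0 to 1 with libraries left out. The genotype by AOM/DSS interaction called 5 with DESeq2, 18 with limma-voom and 0 with each library left out.

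Control libraries share the numbers 1 to 3 in the labels. Deviations of same-numbered libraries correlated at 0.17, 0.02 and 0.08 and those of other pairs at -0.15 to 0.05. Not every library correlated best with its own number. With 3 libraries a group, these values do not settle whether the numbers pair the samples. With the replicate block 12 genes were called in controls. Medians under limma-voom, or with sex-linked expression or Hoxb13 as a term, are alternatives chosen after seeing the data.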
